A study of Rattus norvegicus with 3 samples.

Results

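Interleukin-1 (IL-1) is the classical alarm cytokine of injured skin, and 6 genes for its ligands, antagonist and receptors were followed through the cells of diabetic rat wounds. The 6 genes were chosen by name, as the features Il1a, Il1b, Il1rn, Il1r1, Il1r2 and Il1rap among 32883 listed features, of which 21424 carry a symbol. They were read in 36395 cells kept of 43701 barcodes, in 3 single-cell 3' RNA libraries with 1 library per group. The CO hydrogel library (COHAG in the labels) came from wounds under a hydrogel of hyaluronic acid loaded to give off carbon monoxide (CO). The hydrogel library (HAG) came from wounds under the same kind of gel without CO, and the untreated library from wounds with no gel. Every library came from male wild type Sprague-Dawley (SD) rats given 65 mg/kg streptozotocin (STZ), a toxin of pancreatic beta cells, into the peritoneum at 7 to 9 weeks of age, with blood glucose over 16.7 mM. The series' own text gives the age of the diabetic rats as 8 to 10 weeks. Full-thickness skin defects of 15 mm were taken after 7 days, digested with an enzyme kit at 37 °C and freed of red cells. The labels do not say how many animals a library pools, and 1 label field describes the specimens of all libraries, the untreated one included, as hydrogel treated. Each group being a single library, nothing was tested for significance and replicate error is unknown.

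IL-1α, the product of Il1a, is an intracellular cytokine released by damaged cells, and IL-1β, the product of Il1b, is made as a precursor by activated myeloid cells and cut by caspase-1 in the inflammasome. Both bind the receptor IL-1R1, which recruits the shared accessory chain encoded by Il1rap and signals through MyD88 and IRAK kinases to NF-κB. The antagonist encoded by Il1rn occupies IL-1R1 without recruiting the accessory chain, and IL-1R2 is a decoy that binds ligand without signalling. In skin wounds, neutrophils and macrophages are the known sources of IL-1β, and fibroblasts, endothelial cells and keratinocytes are known responders. In diabetic wounds persistent IL-1β is a described feature of delayed healing.

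The promoters of the 3 genes whose products compete for IL-1R1 are shown because Il1b, Il1a and Il1rn shared their leading cell classes in these libraries. Each line gives the 250 bases before the annotated start, 5′ to 3′ on the gene's strand, from RefSeq in build GRCr8, while the counted files use build rn6. Capitals mark matches to 4 motifs.
Il1b (chr3:137036582-137036831, minus strand): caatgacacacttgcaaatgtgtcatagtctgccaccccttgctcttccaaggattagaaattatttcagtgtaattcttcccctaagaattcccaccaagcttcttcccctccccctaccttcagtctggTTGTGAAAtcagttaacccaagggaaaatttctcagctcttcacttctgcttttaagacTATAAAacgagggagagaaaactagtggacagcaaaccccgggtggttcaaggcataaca
Il1a (chr3:136990018-136990267, minus strand): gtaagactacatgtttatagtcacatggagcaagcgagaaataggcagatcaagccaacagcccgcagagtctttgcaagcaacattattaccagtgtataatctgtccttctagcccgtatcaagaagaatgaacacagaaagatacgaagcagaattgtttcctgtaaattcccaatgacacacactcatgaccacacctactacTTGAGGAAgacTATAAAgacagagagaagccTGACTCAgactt
Il1rn (chr3:27520072-27520321, plus strand): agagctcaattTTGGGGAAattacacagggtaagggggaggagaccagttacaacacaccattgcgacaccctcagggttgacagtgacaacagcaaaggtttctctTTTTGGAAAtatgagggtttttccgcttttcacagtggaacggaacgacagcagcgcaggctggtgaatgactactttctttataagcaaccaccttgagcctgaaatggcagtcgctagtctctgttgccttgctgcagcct

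The motifs searched were the TATA box TATAAA on the sense strand, the C/EBP motif TTNNGNAA, the AP-1 motif TGANTCA and the NF-κB motif, the last 3 on both strands. TATAAA lay at -60 to -55 in Il1b and at -32 to -27 in Il1a, counted from the annotated start, and 8.06% of 33469 RefSeq windows of the same length hold it. C/EBP is a factor family of myeloid cells, and its motif lay at -119 to -112 in Il1b and at -43 to -36 in Il1a. In Il1rn it lay at -239 to -232 and in overlapping matches from -143 to -136 and from -142 to -135. This short motif is common, being in 37.2% of windows. AP-1 matched Il1a at -12 to -6 (6.34% of windows). The NF-κB motif (6.33% of windows) had no match in these 3 windows, and matched in the windows of Il1r1 and Il1rap. In all, 5 of the 6 genes had a RefSeq window, and Il1r2 is named only. A match is a description of letters, not of factor binding.

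The deposited totals were 109718517, 109148721 and 78233883 unique molecular identifiers (UMIs, each marking 1 captured transcript) in the CO hydrogel, hydrogel and untreated libraries. The kept cells numbered 13089, 12574 and 10732 in that order, with medians of 5820, 5593.5 and 2645 UMIs. Libraries shared cell barcodes: 477 were found in both the CO hydrogel and hydrogel libraries, 600 in the CO hydrogel and untreated libraries and 364 in the hydrogel and untreated libraries. Kept cells with a shared barcode were 4.71%, 3.52% and 5.18% of the 3 libraries, and in untreated wounds they were 16.1% of fibroblast-like but 0.846% of neutrophil-like cells. Without them, the 85 levels of the 6 genes with at least 100 UMIs came to between 0.964 and 1.13 times the values given here, and no call was lost or gained among the 74 ratios that could still be compared.

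Cell classes were named from marker genes, with the 6 genes and their pathway lists kept out of the clustering. Neutrophil-like cells were 3.55% of CO hydrogel cells, 22.4% of hydrogel cells and 52.9% of untreated cells (465, 2817 and 5673 cells). Macrophage or monocyte-like cells were 23.2%, 32.5% and 19.3%, and fibroblast-like cells 38.6%, 13.7% and 12.9%, in the same order. The neutrophil-like cells held all 12 listed neutrophil markers in each library, except that Ngp was at 0 in the hydrogel library. Free RNA from lysed cells enters droplets, so T or NK-like cells, not a known source of IL-1β, were used as the measure of background. Their summed neutrophil markers came to 139 CPM (UMIs scaled to a class total of 1000000) in the CO hydrogel library, 408 CPM in the hydrogel library and 1346 CPM in the untreated library. A level at or below that of T or NK-like cells of the same library is not read as a signal of its class. Median depth was 2332.5, 3859 and 4374.5 UMIs in T or NK-like cells of the CO hydrogel, hydrogel and untreated libraries. In fibroblast-like cells it was 9263, 13650.5 and 16902.5 UMIs. The same free RNA gives a smaller CPM in a deeper cell. A level under this bar thus does not show that a class lacks the transcript. All intervals are 95% intervals of counting error only. Levels in CPM are counts of transcript ends not divided by gene length, so they are compared between cells and libraries, not as amounts of different genes.

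Il1b was a transcript of neutrophils and macrophages in all 3 wounds, and its level was lower in the CO hydrogel than in the other libraries within both. In neutrophil-like cells Il1b stood at 13380 CPM (13095 to 13670) in the CO hydrogel library, 19971 CPM (19850 to 20092) in the hydrogel library and 24213 CPM (24124 to 24302) in the untreated library. In macrophage or monocyte-like cells it stood at 2654, 4450 and 7775 CPM in the same order. The order of the 3 libraries was the same in both classes, and no intervals overlapped. Within single clusters the CO hydrogel level stayed lowest in those described here that have at least 100 cells in each library, but hydrogel stood above untreated cells in most of them. The class order of hydrogel and untreated is thus not the order within most of these clusters. The log2 ratio in macrophage or monocyte-like cells was -0.75 for CO hydrogel over hydrogel, -1.55 for CO hydrogel over untreated and -0.81 for hydrogel over untreated. In neutrophil-like cells the ratios were -0.58, -0.86 and -0.28 on the same scale, all short of 2-fold without a further scaling factor.

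Neutrophil-like cells need a further reading, because the median gene of that class was itself shifted. The median log2 ratio of all tested genes was 0.14 for CO hydrogel over hydrogel, 0.73 for CO hydrogel over untreated and 0.71 for hydrogel over untreated. Relative to that median, Il1b stood at -0.71, -1.58 and -0.99. With TMM scaling factors, which centre the bulk of genes, neutrophil Il1b came to -2.00 for CO hydrogel over untreated and -1.11 for hydrogel over untreated, both past 2-fold. The summed fibroblast markers in neutrophil-like cells were 4214 CPM in the CO hydrogel library, 1867 CPM in the hydrogel library and 1501 CPM in the untreated library, and the median neutrophil-like cell held 1317, 1809 and 1952 UMIs. The part of these markers and of depth in the shift was not tested.

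**Figure D1:**
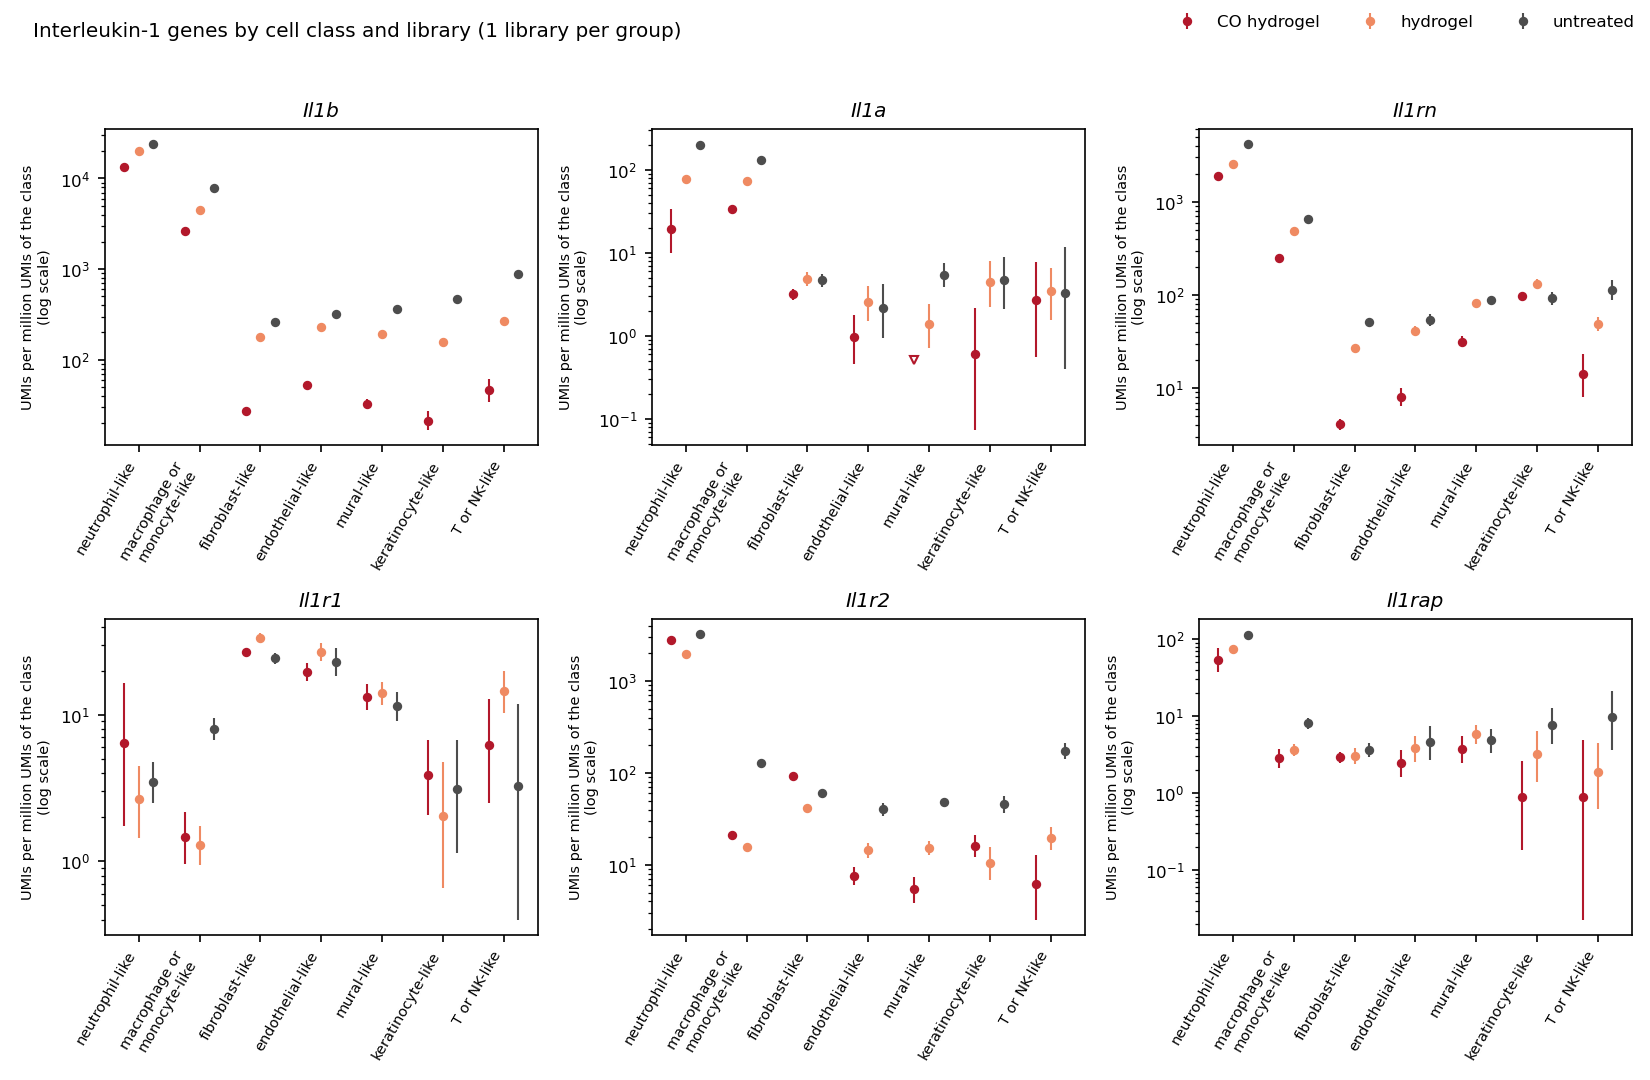
Level of each of the 6 genes in CPM on a log axis, by cell class, with 1 point per library (CO hydrogel, hydrogel, untreated), 95% Poisson intervals of counting error and an open triangle at the upper limit where a library had 0 UMIs. Of the 7 classes shown, neutrophil-like or macrophage or monocyte-like cells were highest in Il1b, Il1a, Il1rn, Il1r2 and Il1rap, and fibroblast-like cells in Il1r1.

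The macrophage or monocyte-like class was not uniform in Il1b. Its cluster 12, led by Fcnb, a ficolin of monocytes, held 13105, 15925 and 13722 CPM in the CO hydrogel, hydrogel and untreated libraries (476, 723 and 642 cells). Cluster 8, with Spp1 and Trem2 among its leading genes, held 712, 3025 and 1821 CPM. Cluster 14, led by the scavenger receptor gene Cd163, held 2147, 4488 and 2812 CPM, and cluster 11, with the complement genes C1qa, C1qb and C1qc, held 1799, 2756 and 4804 CPM. The Fcnb cluster had the highest level of these in every library, and within it CO hydrogel and untreated cells lay close together. Cluster 9, led by Csf3 and with Arg1, came nearly all from the untreated library (4, 58 and 562 cells), with 8830 CPM there. Cluster 10, which stayed unnamed and was led by the class II gene RT1-Bb and the chemokine Ccl17, held 4723, 9306 and 6056 CPM.

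Neutrophil-like clusters differed less. Cluster 15, with Csf3r among its leading genes, held 13584, 19269 and 18332 CPM of Il1b in the CO hydrogel, hydrogel and untreated libraries. Cluster 16, with Stfa2 and Mmp8, held 12386, 19747 and 23255 CPM. Cluster 17, led by Ankrd33b, had 8 CO hydrogel cells, 165 hydrogel cells and 2658 untreated cells, and held 27622 CPM in hydrogel and 26532 CPM in untreated cells. The CO hydrogel level was the lowest of the 3 in clusters 15 and 16.

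The structural classes and T or NK-like cells held little Il1b. T or NK-like cells read 46.2 CPM in the CO hydrogel library, 266 CPM in the hydrogel library and 872 CPM in the untreated library. Fibroblast-like cells read 26.9, 179 and 261 CPM, endothelial-like cells 52.4, 227 and 320 CPM, mural-like cells 32.8, 193 and 365 CPM and keratinocyte-like cells 21.3, 157 and 462 CPM. These levels are at or below those of T or NK-like cells, save for endothelial-like cells of the CO hydrogel library, whose interval overlapped theirs. They are not read as a signal of these classes, and no change is read from their ratios. In mast or basophil-like cells of the CO hydrogel library, 122 of 173 Il1b UMIs lay in 1 cell.

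The source of Il1b transcripts moved with cell numbers. Neutrophil-like cells held 11.7% of the Il1b UMIs of the CO hydrogel library, 31.8% of the hydrogel library and 64.7% of the untreated library. Macrophage or monocyte-like cells held 65.2%, 46.7% and 28.7%, and unnamed cells 19.8%, 18.8% and 3.95%. Over all kept cells Il1b stood at 772, 3590 and 6368 CPM, so the CO hydrogel library was 8.25-fold below the untreated library and 4.65-fold below the hydrogel library. Recomputing the untreated library with the class mix of the CO hydrogel library and its own levels gave 2117 CPM, 3.01-fold below what was observed. Keeping the untreated class mix and taking CO hydrogel levels gave 3073 CPM, 2.07-fold below. Both the mix of classes and the level within classes thus enter the whole-library difference by arithmetic. Fewer cells of a class in a wound and a lower recovery of that class from the tissue cannot be told apart here.

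**Figure D2:**
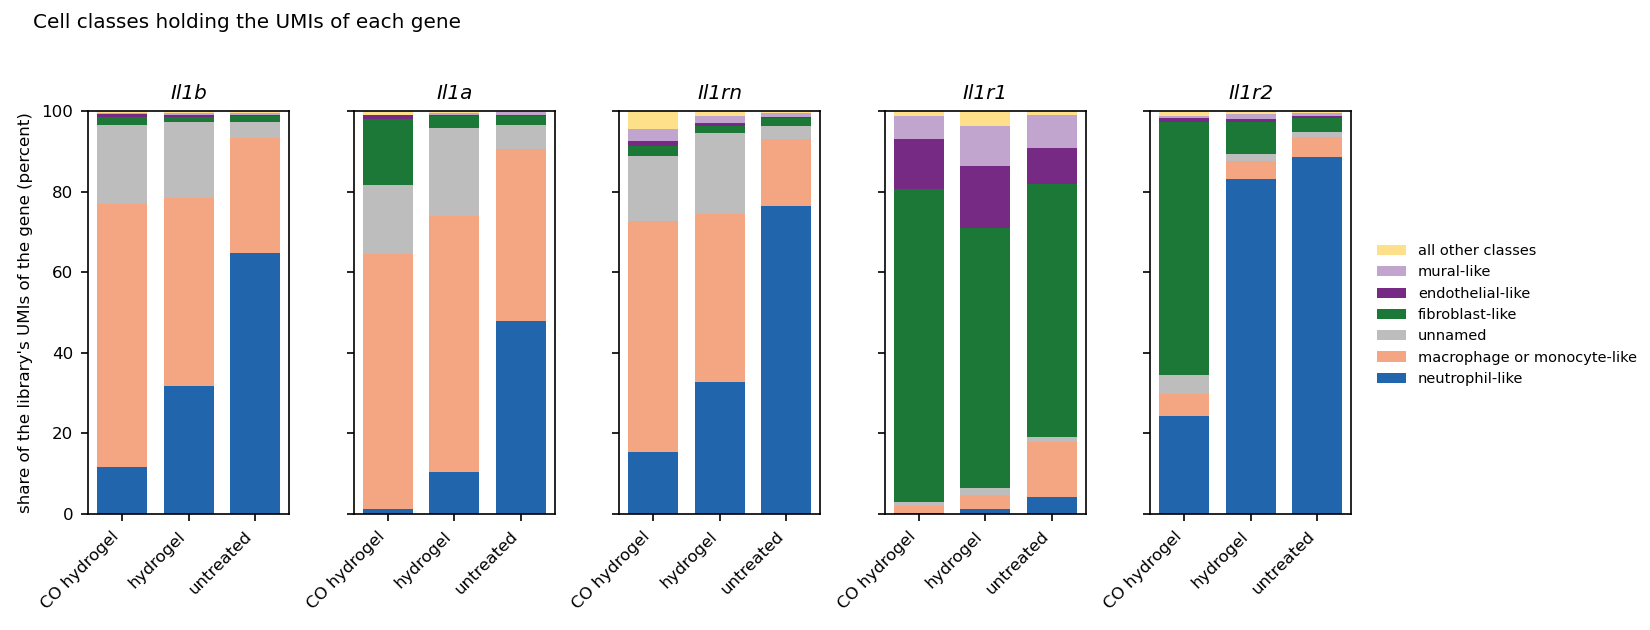
Share of each library's UMIs of Il1b, Il1a, Il1rn, Il1r1 and Il1r2 held by each cell class, in percent, as stacked bars for the CO hydrogel, hydrogel and untreated libraries. Neutrophil-like cells hold 11.7% of CO hydrogel Il1b against 64.7% of untreated Il1b, and fibroblast-like cells hold 62.9% of CO hydrogel Il1r2 against 3.49% of untreated Il1r2.

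Il1a was lower in CO hydrogel macrophages and neutrophils than in those of either other library. Macrophage or monocyte-like cells held 33.4 CPM (30.8 to 36.2) in the CO hydrogel library, 72.5 CPM (69.7 to 75.4) in the hydrogel library and 129 CPM (124 to 135) in the untreated library. The log2 ratios were -1.12 for CO hydrogel over hydrogel, -1.95 for CO hydrogel over untreated and -0.83 for hydrogel over untreated. Neutrophil-like cells held 19.1, 77.3 and 199 CPM, with log2 ratios of -2.01, -3.37 and -1.36, where the CO hydrogel value rests on 12 UMIs. Intervals did not overlap between any pair of libraries in either class. With the stricter cell filter of 1000 UMIs, 500 genes and 10% mitochondrial UMIs, the macrophage ratio for CO hydrogel over hydrogel was -0.97, short of 2-fold. The Fcnb cluster of monocytes was again high, with 117, 242 and 167 CPM.

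A small Il1a signal was found in a subset of fibroblast-like cells. The class as a whole held 3.15, 4.82 and 4.67 CPM in the CO hydrogel, hydrogel and untreated libraries, near the 2.66, 3.43 and 3.27 CPM of T or NK-like cells, which rest on 3, 9 and 2 UMIs. Its cluster 0, led by Prss35 and the matrix gene Tnn, held 9.97, 8.44 and 11.6 CPM. In the finer clustering at resolution 2, the cluster led by the chemokine gene Cxcl6 held 16.5, 12.8 and 14.3 CPM and 63.8%, 60.9% and 62.1% of all fibroblast-like Il1a UMIs. Intervals of the 3 libraries overlapped there. The class ratio for hydrogel over untreated, 0.05 on the log2 scale, was -1.22 with the stricter cell filter and 1.32 with each library clustered by itself, so no direction is read from it. The class ratios for CO hydrogel over hydrogel and CO hydrogel over untreated, -0.61 and -0.56, were -2.80 and -1.48 with each library clustered by itself. The second was -1.82 with the stricter cell filter, so no size is read from either. Fibroblast-like cells made up 16.3% of the Il1a UMIs of the CO hydrogel library, 2.91% of the hydrogel library and 2.37% of the untreated library. The CO hydrogel share rests on 152 UMIs in 121 cells. Keratinocytes are a known store of IL-1α in skin, and the 253, 126 and 102 keratinocyte-like cells held 2, 11 and 9 Il1a UMIs. Mural-like cells had 0 Il1a UMIs in the CO hydrogel library, which allows up to 0.418 CPM at 3 counts, against 1.39 CPM in the hydrogel and 5.44 CPM in the untreated library.

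Il1rn followed the ligands in leukocytes and departed from them in keratinocyte-like cells. Neutrophil-like cells held 1889, 2535 and 4186 CPM in the CO hydrogel, hydrogel and untreated libraries, with log2 ratios of -0.42 for CO hydrogel over hydrogel, -1.15 for CO hydrogel over untreated and -0.72 for hydrogel over untreated, the last being -1.55 with TMM factors. Macrophage or monocyte-like cells held 252, 489 and 662 CPM, with ratios of -0.96, -1.39 and -0.44, where the first was between -1.02 and -1.45 and so past 2-fold under 5 of the alternatives. The antagonist was therefore lowest where the ligand was lowest, and no intervals overlapped. Keratinocyte-like cells held 96.7 CPM (86.4 to 108), 132 CPM (118 to 147) and 92.2 CPM (79.1 to 107). These lay above the T or NK-like levels of 14.2 and 49.5 CPM in the CO hydrogel and hydrogel libraries, but not above the 115 CPM (89.3 to 145) of the untreated library. In that library the median T or NK-like cell held 4374.5 UMIs, against 8811 in keratinocyte-like cells. Their ratios of -0.45, 0.07 and 0.52 all stayed within 2-fold, and both ratios over untreated turned below 0, to -0.95 and -0.15, with the mean of per-cell CPM. Of the 102 untreated keratinocyte-like cells, 22 shared a barcode with another library, and without these the level was 95.1 CPM.

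Antagonist transcripts were also set against ligand transcripts. Over all kept cells there were 10.8 Il1rn UMIs per 100 Il1b UMIs in the CO hydrogel library, 12.3 in the hydrogel library and 14.6 in the untreated library. Neutrophil-like cells had 14.1, 12.7 and 17.3, macrophage or monocyte-like cells 9.50, 10.99 and 8.51, and fibroblast-like cells 15.2, 15.2 and 19.9. Mural-like cells had 96.6, 42.7 and 23.99 Il1rn UMIs per 100 Il1b UMIs, above the neutrophil-like ratio of each library. Keratinocyte-like cells had 454, 84.0 and 19.9, above the neutrophil-like ratio in the CO hydrogel and hydrogel libraries, while in the untreated library the interval of 16.9 to 23.4 included it. Mural-like Il1rn, at 31.6, 82.3 and 87.6 CPM, was above T or NK-like cells in the CO hydrogel and hydrogel libraries and below them in the untreated library. The median T or NK-like cell of the untreated library held 4374.5 UMIs, against 9382 in mural-like cells.

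**Figure D3:**
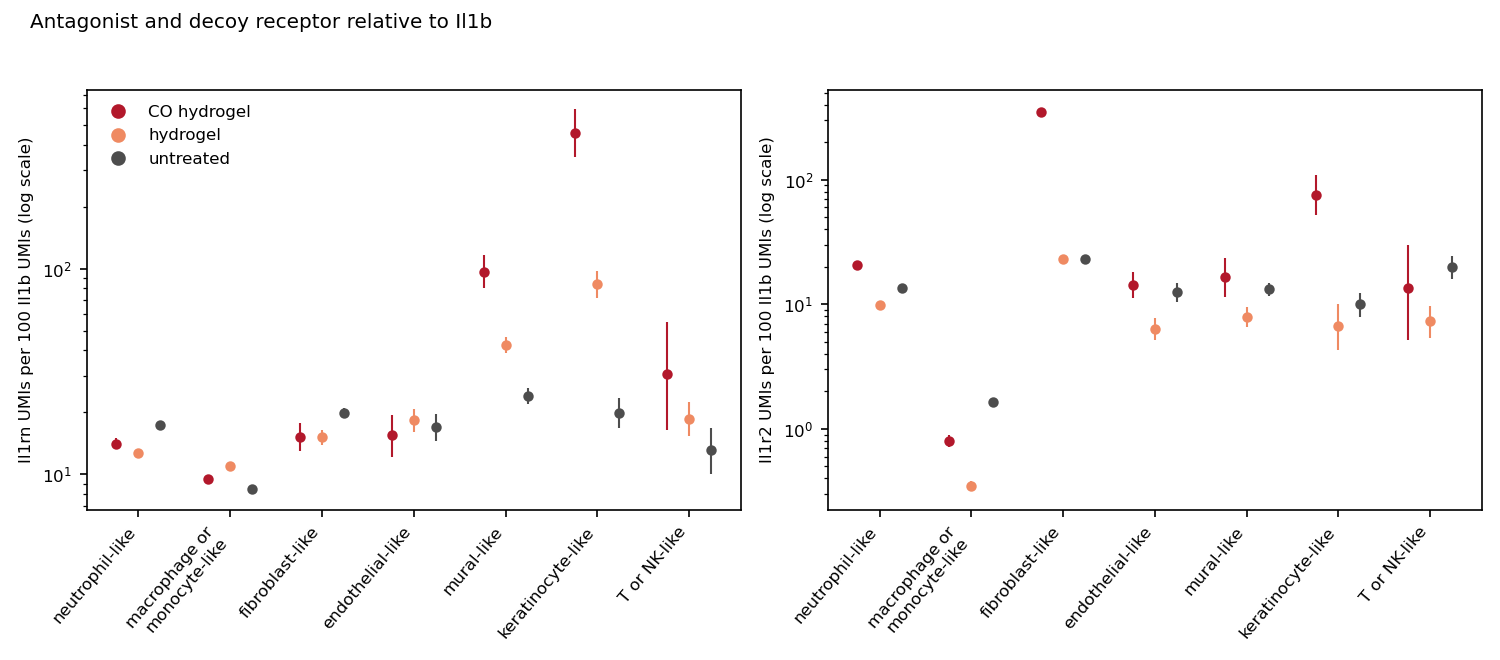
Il1rn UMIs per 100 Il1b UMIs and Il1r2 UMIs per 100 Il1b UMIs (log axes) by cell class for the CO hydrogel, hydrogel and untreated libraries, with 95% intervals of counting error. Il1rn per Il1b stays between 8.51 and 17.3 in neutrophil-like and macrophage or monocyte-like cells, while Il1r2 per Il1b stands at 347 in CO hydrogel fibroblast-like cells.

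Nearly every neutrophil-like cell held Il1b, namely 453 of 465 in the CO hydrogel library, 2806 of 2817 in the hydrogel library and 5668 of 5673 in the untreated library, so co-occurrence with it cannot be read in this class. With each cell thinned to 1000 UMIs, an Il1rn UMI was seen in 66.9% of neutrophil-like cells of the CO hydrogel library, 77.1% of the hydrogel library and 87.9% of the untreated library. Il1r2 was seen in 83.2%, 74.4% and 89.9% of the same cells. In macrophage or monocyte-like cells the share of Il1b-positive cells with Il1rn was 27.3%, 37.3% and 42.7%, against 10.1%, 23.5% and 21.9% among Il1b-negative cells.

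Il1r1, the signalling receptor, was a low transcript of stromal and endothelial cells and lay within 2-fold between wounds there. Fibroblast-like cells held 26.8 CPM (25.3 to 28.3) in the CO hydrogel library, 33.5 CPM (31.2 to 35.9) in the hydrogel library and 24.2 CPM (22.3 to 26.2) in the untreated library. The log2 ratios were -0.32 for CO hydrogel over hydrogel, 0.15 for CO hydrogel over untreated and 0.47 for hydrogel over untreated. With the stricter cell filter the second was -0.31. Endothelial-like cells held 19.6, 27.0 and 22.9 CPM, and mural-like cells 13.2, 14.03 and 11.4 CPM. Intervals of the 3 mural-like values overlapped. Within fibroblast-like clusters the order was another, with 26.4, 36.3 and 39.7 CPM in cluster 1 (led by Angptl1 and Ccn5) and 27.9, 30.7 and 32.9 CPM in cluster 0 (led by Prss35 and Tnn), lowest in the CO hydrogel library in both. A further cluster led by Msln, with 614 of its cells untreated against 65 CO hydrogel and 8 hydrogel cells, held 12.9 CPM in the untreated library. Fibroblast-like cells held 77.8%, 64.6% and 62.8% of all Il1r1 UMIs. After thinning to 1000 UMIs, 2.56%, 3.14% and 2.41% of fibroblast-like cells showed an Il1r1 UMI.

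Il1r1 was low in macrophages, and highest there without a hydrogel, while T or NK-like cells of the hydrogel library came near its mural-like level. In macrophage or monocyte-like cells it stood at 1.47 and 1.30 CPM in the CO hydrogel and hydrogel libraries, against 8.01 CPM in the untreated library. The log2 ratios were -2.44 for CO hydrogel over untreated and -2.63 for hydrogel over untreated. The Csf3 and Arg1 cluster, nearly all of whose cells were untreated, held 13.2 CPM there. T or NK-like cells held 6.22, 14.5 and 3.27 CPM on 7, 38 and 2 UMIs. Some T cells are known to use IL-1R1, so for this gene the class is no clean background. Dendritic-like cells had 0 UMIs in all libraries, which allows up to 4.66, 3.98 and 20.4 CPM.

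Il1r2, the decoy receptor, was mainly a neutrophil transcript, except in the CO hydrogel wound, where fibroblast-like cells held most of it. Neutrophil-like cells held 2778, 1954 and 3267 CPM in the CO hydrogel, hydrogel and untreated libraries, with log2 ratios of 0.51 for CO hydrogel over hydrogel, -0.23 for CO hydrogel over untreated and -0.74 for hydrogel over untreated. With TMM factors the last 2 were -1.38 and -1.57, past 2-fold. Among the 5 genes tested in neutrophil-like cells for CO hydrogel over hydrogel, it alone had a ratio above 0. Fibroblast-like cells held 93.1 CPM (90.4 to 95.9), 41.6 CPM (39.1 to 44.3) and 60.8 CPM (57.7 to 63.9). Their log2 ratio for CO hydrogel over hydrogel was 1.16 (1.06 to 1.26), the single ratio of the 6 genes called higher in that pair. For CO hydrogel over untreated it was 0.62, and for hydrogel over untreated -0.55.

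The background differed sharply between libraries for this gene. T or NK-like cells held 6.22, 19.4 and 174 CPM in the CO hydrogel, hydrogel and untreated libraries. The fibroblast-like level was therefore above that of T or NK-like cells in the CO hydrogel and hydrogel libraries and below it in the untreated library. Regulatory T cells are known to make IL-1R2, so for this gene too the class is no clean background, and the untreated fibroblast-like level is not placed above or below background. Per 100 Il1b UMIs, fibroblast-like cells had 347, 23.2 and 23.3 Il1r2 UMIs, neutrophil-like cells 20.8, 9.79 and 13.5, endothelial-like cells 14.4, 6.33 and 12.6 and mural-like cells 16.6, 7.94 and 13.2. Endothelial-like and mural-like cells lay below the neutrophil ratio of their own library, and fibroblast-like cells lay above it in each. Keratinocyte-like cells, with 76.1, 6.72 and 9.97, lay above it in the CO hydrogel library, on 54 Il1r2 UMIs. Taking all S100a8 and S100a9 UMIs of fibroblast-like cells as free neutrophil RNA allowed a level that the observed Il1r2 exceeded 59.4-fold in the CO hydrogel library, 4.95-fold in the hydrogel library and 2.51-fold in the untreated library.

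In share of cells the CO hydrogel fibroblasts were again highest. After thinning to 1000 UMIs, 9.56% of CO hydrogel fibroblast-like cells had an Il1r2 UMI, against 3.85% of hydrogel and 5.42% of untreated cells. T or NK-like cells showed 0.493%, 2.17% and 8.77%. Without thinning, the fibroblast-like shares were 32.5%, 28.5% and 42.8%, a different order, and the median depth of these cells was highest in the untreated library. Of all Il1r2 UMIs, fibroblast-like cells held 62.9% in the CO hydrogel library, 8.02% in the hydrogel library and 3.49% in the untreated library, and neutrophil-like cells 24.4%, 83.2% and 88.7%.

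Within the fibroblast-like class, Il1r2 differed between clusters. Cluster 1, led by Angptl1 and Ccn5, held 122, 58.3 and 80.7 CPM in the CO hydrogel, hydrogel and untreated libraries (3780, 944 and 390 cells). Cluster 0, led by Prss35 and Tnn, held 13.8, 24.2 and 55.3 CPM. The clusters ran in opposite directions, with log2 ratios for CO hydrogel over hydrogel of 1.06 (0.95 to 1.18) in cluster 1 and -0.81 (-1.09 to -0.53) in cluster 0. In the finer clustering, the cluster with C4b, Scara5, Ccn5 and Dpp4 among its leading genes held 273 CPM in CO hydrogel and 119 CPM in hydrogel cells. It supplied 57.5% of fibroblast-like Il1r2 UMIs of the CO hydrogel library. Pi16, a marker of adventitial fibroblasts, stood there at 888 CPM in the CO hydrogel and 581 CPM in the hydrogel library.

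Among finer clusters with at least 100 cells in each library, the one led by Cilp gave the same direction. Those led by Tnn and by Cxcl6 went the other way, at -0.70 and -0.85 on the log2 scale for CO hydrogel over hydrogel. The cells led by Cilp, Wfdc1 and Smoc2 held 184 CPM of Il1r2 in the CO hydrogel library, 50.1 CPM in the hydrogel library and 86.5 CPM in the untreated library. The log2 ratios were 1.87 (1.71 to 2.04) for CO hydrogel over hydrogel, 1.09 for CO hydrogel over untreated and -0.79 for hydrogel over untreated. Its untreated level is below that of untreated T or NK-like cells, which are no clean background for this gene. The cells of this cluster were not alike across libraries. Cxcl14, a chemokine gene among its leading genes, stood at 1123, 1042 and 1073 CPM there, but Pi16 stood at 363, 41.4 and 89.5 CPM and Dpp4, another gene of adventitial fibroblasts, at 120, 10.9 and 53.9 CPM, in the same order of libraries as Il1r2. Their part in the Il1r2 difference was not tested. The cluster led by Tnfrsf11b and Efemp1 held 30.8 CPM in the CO hydrogel and 31.5 CPM in the hydrogel library. A cluster led by Msln, nearly all untreated, held 55.5 CPM there. The fibroblast-like clusters of resolution 1, not the finer ones, were also weighted as in the hydrogel library. The class ratio for CO hydrogel over hydrogel was then 0.72 on the log2 scale in place of 1.16, which ends the call. At that resolution the mix of fibroblasts and the level within clusters both enter the class value. The finer clusters were not weighted.

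**Figure D4:**
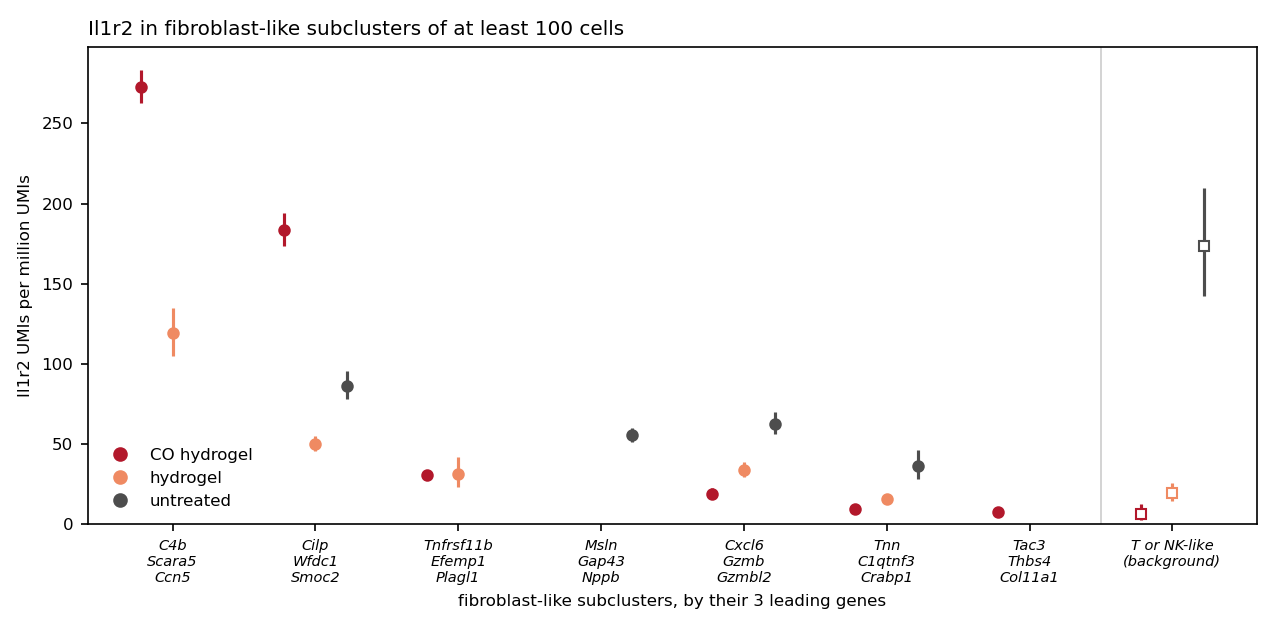
Il1r2 level in CPM in finer fibroblast-like clusters on a linear axis, one point for each of the CO hydrogel, hydrogel and untreated libraries with at least 100 cells in the cluster, beside T or NK-like cells (open squares), with 95% intervals of counting error. The cluster with C4b and Scara5 and the cluster with Cilp and Smoc2 are highest in the CO hydrogel library, at 273 and 184 CPM, while the Tnn and Cxcl6 clusters are lowest there.

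The decoy to signalling receptor ratio of fibroblast-like cells was 3.48 Il1r2 UMIs per Il1r1 UMI in the CO hydrogel library, 1.24 in the hydrogel library and 2.51 in the untreated library. The untreated Il1r2 level behind the last value is below that of T or NK-like cells, which are no clean background for this gene. These UMI ratios compare libraries and do not measure receptor protein. In macrophage or monocyte-like cells Il1r2 stood at 21.2, 15.5 and 129 CPM. Set per 100 Il1b UMIs this was 0.7995, 0.349 and 1.66, below the neutrophil ratio of each library. These cells hold their own Il1b, so this ratio does not tell whether their Il1r2 is free RNA. Their S100a8 and S100a9 UMIs, taken as free neutrophil RNA, allowed some Il1r2. The observed level was 1.72, 0.81 and 1.48 times that allowed in the CO hydrogel, hydrogel and untreated libraries. S100a8 and S100a9 stood at 273, 411 and 948 CPM in these cells, above the 83.5, 241 and 642 CPM of T or NK-like cells. Part of them may not be free RNA, so the allowance does not tell either whether this Il1r2 is.

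Il1rap, the accessory chain, had few UMIs and its highest level in neutrophil-like cells. They held 54.2 CPM (37.6 to 75.8), 73.5 CPM (66.3 to 81.2) and 112 CPM (106 to 118) in the CO hydrogel, hydrogel and untreated libraries. The log2 ratios were -0.44 for CO hydrogel over hydrogel, with an interval that spans 0, -1.05 for CO hydrogel over untreated and -0.61 for hydrogel over untreated. The second was -0.91 with the stricter cell filter, short of 2-fold, and the last -1.44 with TMM factors, past it. Fibroblast-like cells held 2.95, 3.02 and 3.66 CPM, with overlapping intervals, and macrophage or monocyte-like cells 2.83, 3.66 and 8.07 CPM. In the untreated library both were below the 9.82 CPM of T or NK-like cells, which rests on 6 UMIs. Neutrophil-like cells, with Il1r2 and Il1rap above every other class shown, held Il1r1 at 6.38, 2.66 and 3.48 CPM on 4, 14 and 41 UMIs.

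A ratio was called where it was at least 2-fold, on at least 100 UMIs over both libraries, in the 7 classes with at least 100 cells in every library. Of 42 combinations of gene and class, 28 could be compared for CO hydrogel over hydrogel, and 1 was called higher and 12 lower, beside 2.12% higher and 1.82% lower among all genes and classes. Between CO hydrogel and untreated 30 were compared, with 0 higher and 21 lower, beside 7.79% and 2.42%. For hydrogel over untreated 31 were compared, with 0 higher and 11 lower, beside 6.65% and 1.88%. The pairs share libraries, so these counts are not independent of each other. Most of the lower calls were in classes where the gene is far higher in another class and free RNA can carry it. Leaving out combinations over 5 times higher in another class left 10 with 0 higher and 2 lower for CO hydrogel over hydrogel, beside 1.29% higher and 1.18% lower among all genes and classes under the same rule. It left 11 with 0 higher and 6 lower for CO hydrogel over untreated, beside 5.83% and 1.8%. For hydrogel over untreated it left 11 with 0 higher and 2 lower, beside 4.9% and 1.5%. The fibroblast-like Il1r2 call is among those left out by this rule, since neutrophil-like cells of the same library hold 29.8 times its level.

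What remained for CO hydrogel over hydrogel was Il1a, lower in macrophage or monocyte-like and in neutrophil-like cells. In CO hydrogel over untreated it was Il1a, Il1b and Il1r1 in macrophage or monocyte-like cells and Il1a, Il1rn and Il1rap in neutrophil-like cells. For hydrogel over untreated it was Il1a in neutrophil-like and Il1r1 in macrophage or monocyte-like cells. Il1a was the gene that recurred in every pair, and no ligand was called higher in any.

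**Figure D5:**
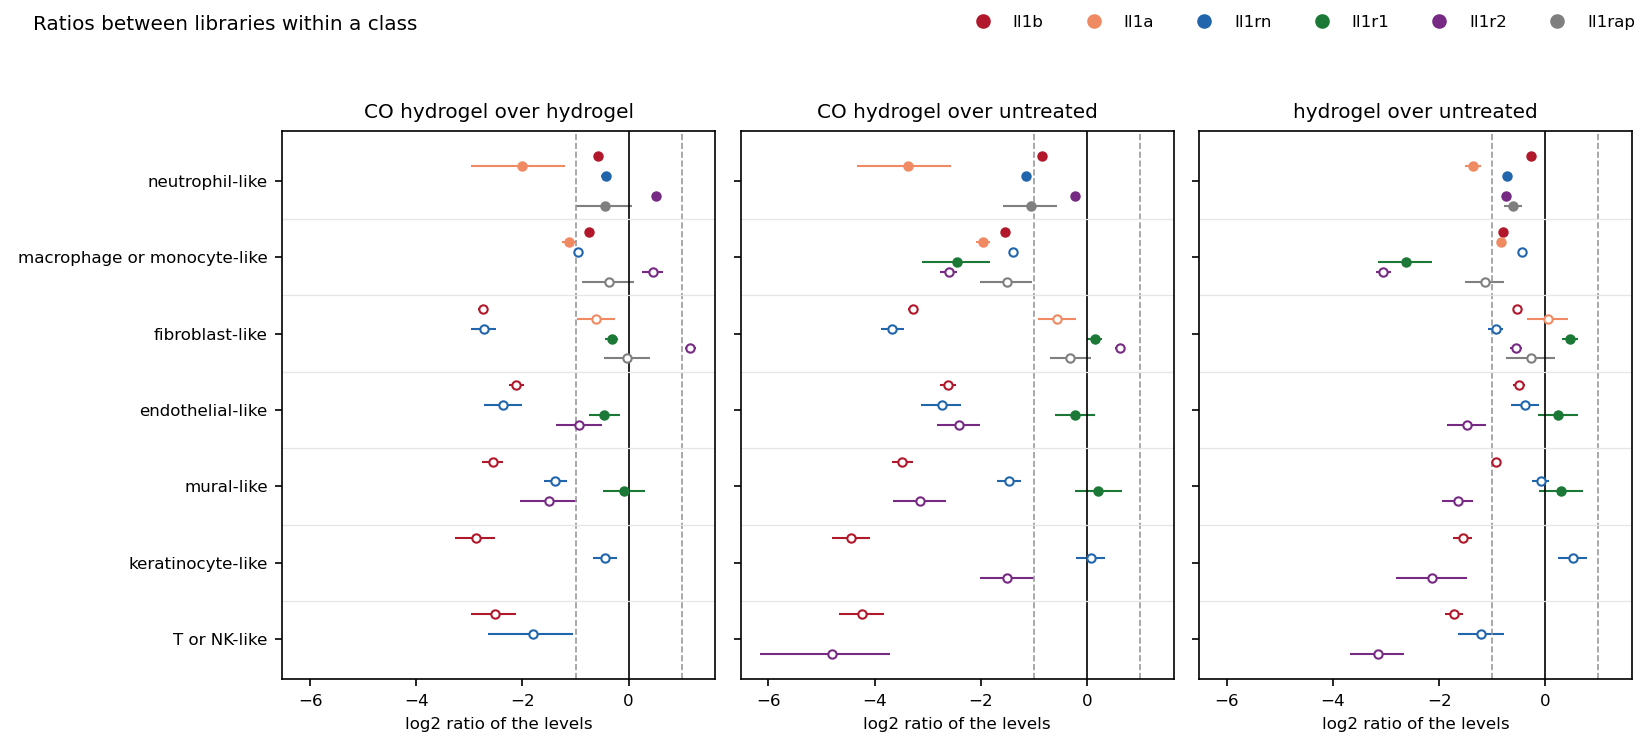
Log2 ratios of the 6 genes by cell class for CO hydrogel over hydrogel, CO hydrogel over untreated and hydrogel over untreated, with 95% conditional intervals of counting error and dashed lines at 2-fold. Open points mark combinations in which another class holds over 5 times the level, and Il1r2 in fibroblast-like cells, at 1.16 for CO hydrogel over hydrogel, is the one ratio past 2-fold on the higher side among those plotted, which have at least 100 UMIs over both libraries.

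The rest of the pathway was read from 4 lists of 74 genes in fibroblast-like, macrophage or monocyte-like, neutrophil-like and endothelial-like cells. In fibroblast-like cells, 1.94% of all tested genes were called higher and 1.76% lower for CO hydrogel over hydrogel, 6.03% and 3.63% for CO hydrogel over untreated, and 4.8% and 3.32% for hydrogel over untreated. Of 26 genes that IL-1 is known to induce in stromal cells, 1 was higher and 4 lower for CO hydrogel over hydrogel, with a list median of -0.28 against -0.004 for all genes on the log2 scale. In CO hydrogel over untreated 4 were higher and 7 lower (median -0.40 against 0.12), and for hydrogel over untreated 3 were higher and 2 lower (-0.12 against 0.11). With TMM factors, the share of all called genes that were higher for hydrogel over untreated was 46.2% in place of 59.1%.

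The fibroblast-like genes called lay in both directions. Mmp3, the stromelysin that IL-1 classically induces, stood at 173 CPM in the CO hydrogel and 109 CPM in the hydrogel library, against 16.4 CPM in the untreated library (log2 3.40 and 2.74). Vcam1, an adhesion molecule, stood at 139 CPM in the hydrogel library against 35.7 CPM in the untreated library (1.96). The list genes with the largest lower ratios for CO hydrogel over hydrogel were Nos2, the inducible nitric oxide synthase, Cxcl2, a neutrophil attractant, and Csf3, the granulocyte growth factor (-3.99, -1.90 and -1.69). Nos2 and Cxcl2 are over 100 times higher in another class, and free RNA can carry them.

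Among the 13 other IL-1 family genes in the files, none of 7 tested in fibroblast-like cells was called for CO hydrogel over hydrogel, 2 of 6 were lower for CO hydrogel over untreated, and 1 was higher and 3 lower of 6 for hydrogel over untreated. Il18rap, the accessory chain of the IL-18 receptor, stood at 14.5 and 15.8 CPM in the CO hydrogel and hydrogel libraries, against 61.1 CPM in the untreated library (log2 -2.08 and -1.95). Its partner Il18r1 stood at 6.27 and 3.52 CPM, against 13.2 CPM (-1.07 and -1.90), and is at least 7.67 times higher in another class. Cells of the Msln cluster were 1.09% of CO hydrogel and 44.5% of untreated fibroblast-like cells, and their part in these ratios was not tested. Il1rl2, the receptor for IL-36, stood at 27.1 CPM in the hydrogel library against 12.3 CPM in the untreated library (1.15). Of the signalling list, 0 of 16, 1 of 15 and 0 of 15 genes were called in the 3 pairs, and the 1 was Irak2, a kinase of the receptor complex, at 6.56 CPM in the CO hydrogel library against 15.0 CPM in the untreated library. Of the inflammasome list 1 of 11 was lower for CO hydrogel over hydrogel, 2 of 12 for CO hydrogel over untreated and 0 of 12 for hydrogel over untreated. These were Nlrp3, the inflammasome sensor, and Mefv, whose levels are at least 69.1 times higher in another class.

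In macrophage or monocyte-like cells, 4.28% of all tested genes were called higher and 2.08% lower for CO hydrogel over hydrogel, 7.36% and 2.94% for CO hydrogel over untreated, and 5.31% and 2.26% for hydrogel over untreated. With TMM factors the share of called genes that were higher was 50.7% in place of 71.5% for CO hydrogel over untreated and 54.4% in place of 70.2% for hydrogel over untreated. Nlrp3 stood at 200 CPM in the CO hydrogel library against 587 CPM in the untreated library (log2 -1.55), the 1 call among 13 inflammasome genes in that pair. For hydrogel over untreated 3 of 14 were higher. They were Gsdmd, the pore of IL-1β release, at 26.4 against 11.6 CPM, Casp4, an inflammatory caspase, at 20.9 against 9.73 CPM, and Nek7, a partner of the NLRP3 sensor, at 4.09 against 1.97 CPM. None of 14 was called for CO hydrogel over hydrogel, and no signalling gene was called in any pair (16, 15 and 16 tested).

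The IL-18 binding protein gene Il18bp, whose product inhibits the IL-1 relative IL-18, had its highest macrophage level in the hydrogel wound. It stood at 26.5 CPM in the CO hydrogel, 77.2 CPM in the hydrogel and 15.5 CPM in the untreated library. The log2 ratio was -1.54 for CO hydrogel over hydrogel and 2.31 for hydrogel over untreated. Of the other IL-1 family genes tested there, 1 was higher and 1 lower of 6 for CO hydrogel over hydrogel, 0 higher and 1 lower of 5 for CO hydrogel over untreated, and 1 higher and 3 lower of 7 for hydrogel over untreated. Those other than Il18bp were Il1rl1, Il18rap and Il1rl2, each over 5 times higher in another class.

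The same list of genes that IL-1 induces in stromal cells, read in macrophage or monocyte-like cells, gave 6 higher and 5 lower of 24 for CO hydrogel over hydrogel, 3 higher and 10 lower of 24 for CO hydrogel over untreated, and 3 higher and 8 lower of 25 for hydrogel over untreated. The list medians were -0.15, -0.73 and -0.56, against 0.01, 0.20 and 0.18 for all genes. Csf3 stood at 5.32, 57.2 and 332 CPM in the CO hydrogel, hydrogel and untreated libraries (log2 -3.43, -5.96 and -2.54 for the 3 pairs). Ptges, the inducible prostaglandin E synthase, stood at 3.85 CPM in the CO hydrogel library against 47.3 CPM in the hydrogel library (-3.62), and Nos2 at 109 against 589 CPM (-2.44). Mmp9, the gelatinase, ran the other way, with 1157 and 476 CPM in the CO hydrogel and hydrogel libraries against 57.0 CPM in the untreated library (4.34 and 3.06). Mmp3 was higher too (4.31 and 3.48), on 7 untreated UMIs and with a level at least 93.2 times higher in another class.

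In neutrophil-like cells the background was itself lopsided, and its direction turned with the scaling. There 1.81% of all tested genes were called higher and 3.65% lower for CO hydrogel over hydrogel, 36.7% and 4.52% for CO hydrogel over untreated, and 32.9% and 2.49% for hydrogel over untreated. Of the called genes 33.2%, 89.0% and 93.0% were higher in the 3 pairs, and with TMM factors 8.45%, 5.95% and 21.9%. Il18bp stood at 44.7, 102 and 10.9 CPM in the CO hydrogel, hydrogel and untreated libraries, again highest in the hydrogel wound, and was the 1 call among the other IL-1 family genes in each pair (3, 5 and 5 tested). Casp1, the enzyme that cuts pro-IL-1β, stood at 31.9, 100 and 35.4 CPM, also highest in the hydrogel library, on 20, 527 and 417 UMIs. Nlrc4, an inflammasome sensor, stood at 27.1, 63.4 and 74.3 CPM.

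Of the 11 neutrophil inflammasome genes tested, 2 were lower for CO hydrogel over hydrogel (Casp1 and Nlrc4), 2 were higher (Casp8 and Capn2) and 1 lower (Nlrc4) for CO hydrogel over untreated, and 2 were higher (Casp1 and Casp4) for hydrogel over untreated. Signalling genes called were 0 of 11 for CO hydrogel over hydrogel, Irak4 higher and Traf6 lower of 13 for CO hydrogel over untreated, and Irak4 and Chuk higher of 13 for hydrogel over untreated. IRAK4 and TRAF6 carry the receptor signal and CHUK is a kinase upstream of NF-κB. Traf6 rests on 5 CO hydrogel UMIs.

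In neutrophil-like cells the stromal list of IL-1 responsive genes gave 0 higher and 4 lower of 19 for CO hydrogel over hydrogel, 2 higher and 6 lower of 20 for CO hydrogel over untreated, and 0 higher and 5 lower of 21 for hydrogel over untreated. The list medians of -0.55, -0.73 and -0.18 stood below the 0.14, 0.73 and 0.71 of all genes. Cxcl1, a neutrophil attractant, stood at 1359, 2808 and 7616 CPM, and its relative Cxcl2 at 16157 CPM in the CO hydrogel library against 69700 CPM in the untreated library. Tnfaip3, the A20 brake on NF-κB, stood at 116 CPM in the CO hydrogel against 270 CPM in the hydrogel library. Il6 stood at 108 CPM in the hydrogel library against 462 CPM in the untreated library. Csf3 had 0 UMIs in the CO hydrogel library, at least 5.04-fold lower than the 24.1 CPM of the hydrogel library and at least 22.3-fold lower than the 107 CPM of the untreated library, against a floor of 3 counts or 4.79 CPM.

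Endothelial-like cells showed few pathway calls. Of all their tested genes 2.97% were called higher and 1.07% lower for CO hydrogel over hydrogel, 6.76% and 1.03% for CO hydrogel over untreated, and 3.06% and 0.42% for hydrogel over untreated. Signalling genes gave 0 of 13 in every pair, and the other IL-1 family genes gave 0 of 4, 0 of 4 and 1 of 3, which was Il18bp at 34.6 CPM in the hydrogel library against 12.4 CPM in the untreated library. Inflammasome genes gave 1 lower of 10 for CO hydrogel over hydrogel, which was Nlrp3, and 0 of 9 and 0 of 10 in the pairs with the untreated library. The stromal list of IL-1 responsive genes gave 1 higher and 1 lower of 21, 3 higher and 3 lower of 21, and 1 higher and 0 lower of 19 in the 3 pairs. Has1, a hyaluronan synthase, stood at 22.4 CPM in the CO hydrogel library against 8.89 CPM in the hydrogel library (log2 1.33), and is 31.1 times higher in another class.

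The profiles of Il1b, Il1a and Il1rn over cell classes went together, Il1r2 and Il1rap went with them somewhat less closely, and Il1r1 stood apart. Over 23 profiles of class and library with at least 100 cells, the Pearson correlation of log2(CPM + 1) was 0.896 between Il1a and Il1b and 0.918 between Il1b and Il1rn, while Il1r1 against Il1b gave -0.290. Il1a against Il1rn gave 0.809, Il1r2 and Il1rap against Il1b gave 0.773 and 0.772, and Il1r2 against Il1rap gave 0.886. Profiles share libraries and their free RNA, so these are descriptions. Among 12008 genes, those most like Il1b were Osm, the cytokine oncostatin M (0.988), the lectin receptor Clec4d (0.988) and Lilrb4 (0.985). Those most like Il1a were Fcgr2a, an Fc receptor (0.952), Sgms2 (0.948) and Nlrc4 (0.916). Il1rn was most like Lilrb4 (0.937), Clec4e (0.933) and Clec4d (0.928).

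Among the receptors, Il1r1 was most like Heg1 (0.879), Vegfc, a growth factor of lymphatic vessels (0.851), and Spry2 (0.850). Il1r2 was most like the neutrophil granule genes Mmp8 (0.954), Retnlg (0.949) and Pglyrp1 (0.943), and Il1rap was most like Camp (0.941), Retnlg (0.928) and Pglyrp1 (0.928). Mmp8, Retnlg and Pglyrp1 are among the markers that named the neutrophil-like class.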

How the data were processed

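Wound skin cells of diabetic rats were read in 3 libraries, 1 per group. The deposited matrices are the authors' raw UMI counts, made with Cell Ranger 6.0.1 per the file headers. Build rn6, Seurat 4.2.0, DESeq 1.38.0 and Cell Ranger 7.0.0 are named in the submitters' processing notes. A barcode needed 500 UMIs, 300 genes and no more than 20% mitochondrial UMIs to be kept, and those with the highest Scrublet scores were removed at 0.8% per 1000 barcodes. Scrublet's own threshold called 546, 545 and 0 in the CO hydrogel, hydrogel and untreated libraries. Clustering used 2000 variable genes without the 6 genes and their pathway lists, 30 principal components, 20 neighbours and Leiden resolution 1. It gave 21 clusters, named by markers of 17 classes where at least 3 markers were detected, a scoring chosen after the data were seen, and 2 stayed unnamed. Some listed genes, among them Col1a2, Col6a3, Pecam1, Ccr2, Krt6a, Dct, Foxd3, Il37 and Saa3, were not analysed here.

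The UMIs of each class in each library were summed and scaled to CPM, with exact Poisson intervals, and ratios have exact conditional binomial intervals. Shares of cells used 1 draw of 1000 UMIs per cell. The scripts were tested on simulated data. The genes and lists were chosen with earlier results of these data known. List genes named are at most the 3 with the largest ratio past 2-fold per list, class and pair, and genes of like pattern are the 3 of highest correlation per gene. Alternatives were clustering each library alone, resolution 2, keeping doublets, a stricter cell filter (1000 UMIs, 500 genes, 10% mitochondrial), keeping the lists for clustering, TMM factors, mean per-cell CPM, other minimum counts, subtracting free RNA and thinning to 2000 UMIs. Leaving out shared barcodes or genes higher elsewhere, and the fixed fibroblast mix, were added after the data were seen. Tools were scanpy 1.11.5, igraph 0.11.9, scipy 1.17.1, pandas 2.3.3, numpy 2.4.6, matplotlib 3.10.9 on Python 3.11.15, and edgeR 4.0.16 (TMM factors only) on R 4.3.3.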

Additional observations from a re-analysis of the deposited data

Results flagged for a closer look

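The log2 ratios of Il1r2 had opposite signs in different cell classes of the same pair of libraries, a difference that was not tested, as each group is 1 library. For CO hydrogel over hydrogel the log2 ratio was 1.16 in fibroblast-like cells and 0.51 in neutrophil-like cells, against -0.93 in endothelial-like and -1.49 in mural-like cells. Fibroblast-like cells differed from endothelial-like cells by 2.09 and from mural-like cells by 2.66, and neutrophil-like from mural-like cells by 2.0007. For CO hydrogel over untreated the ratio was 0.62 in fibroblast-like cells, which differed by 3.22 from macrophage or monocyte-like cells, by 3.03 from endothelial-like cells, by 3.76 from mural-like cells and by 2.12 from keratinocyte-like cells. T or NK-like cells held 6.22, 19.4 and 174 CPM of Il1r2 in the CO hydrogel, hydrogel and untreated libraries. Endothelial-like cells held 7.55, 14.4 and 40.2 CPM, and mural-like cells 5.44, 15.3 and 48.1 CPM. Both were below these T or NK-like levels or had an interval that overlapped theirs. T or NK-like cells are no clean background for this gene, so the endothelial-like and mural-like ratios are read neither as background nor as changes of those classes. In the untreated library the macrophage or monocyte-like level of 129 CPM and the keratinocyte-like level of 46.1 CPM were below that of T or NK-like cells too, and the part of free RNA in these differences was not tested.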

How the results depend on the processing

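No paired analysis was possible because each group is 1 library and the labels carry no replicate numbers, and no library could be left out of a group. No called ratio changed direction under any alternative, while 21 of 795 recomputed ratios had another sign than the reported value, in 14 ratios that all lay within 2-fold. The count of ratios called higher for CO hydrogel over hydrogel, 1, became 2 with no minimum and 0.5 counts added and 0 without genes over 5 times higher elsewhere, and the 12 lower became 2 without those genes. For CO hydrogel over untreated, 0 higher became 1 with no minimum and 1 with free RNA subtracted, and 21 lower became 6 without genes higher elsewhere. For hydrogel over untreated, 0 higher became 1 with each library clustered by itself, with 20 UMIs as the minimum and with none, and 11 lower became 18 with TMM factors, 5 with free RNA subtracted and 2 without genes higher elsewhere. The neutrophil-like share of Il1b UMIs was 7.29%, 28.6% and 50.5% in the CO hydrogel, hydrogel and untreated libraries with the stricter filter, 10.3%, 28.3% and 64.5% without doublet removal, and 11.9%, 32.3% and 65.0% without shared barcodes. The hydrogel share was 28.3% at resolution 2 and 27.3% with each library clustered by itself. Fibroblast-like Il1r2 for CO hydrogel over hydrogel was 1.48 with each library clustered by itself and 1.32 with mean per-cell CPM. It was 1.46 with free RNA subtracted and 0.72 with the hydrogel mix of the resolution 1 clusters. TMM factors added 10 calls and lost 0 among 82 ratios. Free RNA subtraction lost 4 and added 1 among the 72 still comparable. The stricter filter lost 2 and added 3 among 74, and leaving out shared barcodes lost 0 and added 0 among 74. Subtraction left nothing of keratinocyte-like Il1b, Il1rn and Il1r2 or of hydrogel macrophage Il1r2. Their ratios dropped out of the counts with free RNA subtracted without being compared. Keratinocyte-like cells held S100a8 and S100a9 at 10556, 27489 and 3913 CPM in the CO hydrogel, hydrogel and untreated libraries. T or NK-like cells held 83.5, 241 and 642 CPM. In keratinocyte-like cells the free RNA allowed for these genes was above what was observed in every library. The subtraction therefore cannot tell free RNA from transcripts of that class. The cause of these changes was not tested. Depth limits Il1a in CO hydrogel neutrophil-like cells (12 UMIs), Il1rap outside neutrophils and Il1r1 in leukocytes.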
